A study of Mus musculus with 4 samples.

Results

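Neutrophils of the mouse lung are described here, as captured by single-cell RNA sequencing of whole lung tissue at 4 ages. Cells were selected on their own reads: 201 to 4999 genes, at most 25000 UMIs (unique molecular identifiers, each marking 1 captured RNA molecule) and under 8% of UMIs from mitochondrial genes. Within these limits a cell was taken when S100a8 and S100a9 had at least 5 UMIs each, at least 2 of Csf3r, Cxcr2, Retnlg and G0s2 had a UMI, and Cd3e, Cd79a and Krt79 had none. This gave 1560 neutrophils of 28153 cells, that is 549 at NB, 216 at 2 M, 377 at 10 M and 418 at 18 M. The study compared the lungs of wild-type C57BL/6 mice labelled male at 10 days (NB), 2 months (2 M), 10 months (10 M) and 18 months (18 M), with 1 library for each age. The lungs were digested with collagenase D and DNase1, and dead cells were removed with a kit. How many animals gave each library is not given in the sources used here, and no library was repeated, so age cannot be told apart from the library.

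Neutrophils are short-lived phagocytes made in the bone marrow. While they mature they fill their granules in waves, first with the primary granule proteins such as myeloperoxidase, then with the specific granule proteins such as lactoferrin and cathelicidin, and last with gelatinase. The messages for granule proteins are switched off again before the cell enters the blood, so a circulating or tissue neutrophil carries the proteins but little of their RNA. The lung holds a large pool of neutrophils in its capillaries. S100a8 and S100a9 encode calprotectin, Csf3r the receptor for the growth factor G-CSF, Cxcr2 the receptor for chemokines that draw neutrophils out of the marrow, Retnlg a resistin-like protein, and G0s2 an inhibitor of lipid breakdown.

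In the library labelled 18 M, the neutrophils carried a set of messages that was sparse in the other 3 libraries: those of the stefin A genes, a family of small inhibitors of cysteine proteases that lie side by side on chromosome 16. The promoters of 3 members are shown because these members differ widely in how far apart the libraries were, while their upstream sequences are alike. The bases run 5′ to 3′ on the strand of the gene (RefSeq, GRCm38.p6) and stop where the gene begins in RefSeq or in GENCODE, whichever comes first. Capitals mark the longest run of letters that occurs in the 250 bases before the RefSeq starts of all 4 of Stfa2l1, Stfa1, Stfa2 and Stfa3.
Stfa2l1, chr16:36156561-36156810, plus strand: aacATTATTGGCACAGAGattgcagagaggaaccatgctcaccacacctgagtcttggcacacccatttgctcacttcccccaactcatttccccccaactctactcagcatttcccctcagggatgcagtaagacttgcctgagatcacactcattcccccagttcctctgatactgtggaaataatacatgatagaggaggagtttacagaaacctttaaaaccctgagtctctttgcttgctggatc
Stfa2, chr16:36408458-36408613, minus strand: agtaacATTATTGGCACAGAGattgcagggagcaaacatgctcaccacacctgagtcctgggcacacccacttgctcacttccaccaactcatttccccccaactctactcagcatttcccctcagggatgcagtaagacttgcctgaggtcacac
Stfa3, chr16:36455393-36455642, minus strand: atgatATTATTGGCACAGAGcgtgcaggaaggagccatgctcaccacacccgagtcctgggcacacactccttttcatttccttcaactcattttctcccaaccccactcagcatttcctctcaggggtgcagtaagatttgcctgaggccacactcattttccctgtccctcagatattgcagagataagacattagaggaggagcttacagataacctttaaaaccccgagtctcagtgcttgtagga
The shared run, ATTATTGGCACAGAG, is 15 letters long. Of 32851 promoters of the same length, searched on both strands, 5 held it (0.0152%), and all 5 lie on chromosome 16 (the 4 named above and Cstdc5). The 4 named above hold it by the way the run was chosen, so their count is not a result. Of the 10 members of the set described below, only these 4 had a promoter matched by name and entered the comparison. Over the whole 250 bases, Stfa2l1 and Stfa2 were 89.4% identical, and the other pairs of the 4 were 80.4% to 83.5% identical. A shared run is a description of the sequence and not evidence that a factor binds there.

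The members were checked against markers of the type. The rule itself used the 6 genes named at the start, so their levels describe the choice and are not a result. S100a8 and S100a9 together made up a median of 17.9% at NB, 11.8% at 2 M, 14.3% at 10 M and 11.1% at 18 M of a neutrophil's UMIs, against at most 0.0120% in the other cells of any library. Few members were near the limit of 5 UMIs. The smaller of a cell's S100 counts had a median of 160 UMIs and a lowest value of 6, and 3 members had 5 or 6 while 2 cells with 3 or 4 were not taken. All 4 of Csf3r, Cxcr2, Retnlg and G0s2 had a UMI in 62.8% of the NB members, 50.0% of the 2 M members, 47.2% of the 10 M members and 33.0% of the 18 M members. In the library labelled 18 M, 91 cells with both S100 genes had fewer than 2 of the 4 markers, against 6 at NB, 9 at 2 M and 21 at 10 M. A further 173 cells over the 4 libraries were dropped for a UMI of Cd3e, Cd79a or Krt79, and these had a median of 5680 to 7984 UMIs.

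Markers that the rule did not use were checked against the name. Monocytes were taken as cells with at least 3 of Ccr2, Csf1r, F13a1, Ms4a6c and Ly6c2 and numbered 45 at NB, 17 at 2 M, 63 at 10 M and 65 at 18 M. T cells, used as a background below, had Cd3d and Cd3e and no Cd79a. F13a1, a coagulation factor made by monocytes, had 0 UMIs in the neutrophils of every library. Ccr2, the monocyte chemokine receptor, had 4.10 CPM at NB, 9.48 at 2 M, 24.2 at 10 M and 4.38 at 18 M in neutrophils, against 276, 425, 259.7 and 149 CPM in the monocytes of the same libraries, which it helped to choose. Summed over the 5 monocyte markers, neutrophils had 156.7 CPM at NB, 138.2 at 2 M, 138.4 at 10 M and 281.0 at 18 M, mostly from Csf1r and Ly6c2. CPM are UMIs per 1000000 summed UMIs of the cells in question. The eosinophil genes Epx, Prg2 and Il5ra and the basophil and mast cell genes Mcpt8, Cpa3 and Ms4a2 were at 0 in the neutrophils of all 4 libraries. Other members of these lists had a few UMIs. Summed over 5 eosinophil genes, neutrophils had 4.61 CPM at NB, 8.13 at 2 M, 7.56 at 10 M and 7.30 at 18 M. Over 5 basophil and mast cell genes they had 0, 0, 0.756 and 3.65 CPM. The name neutrophil was kept.

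Neutrophils made up 8.61% of the NB cells (95% exact binomial interval 7.93% to 9.32%), 3.90% of the 2 M cells (3.41% to 4.44%), 4.80% of the 10 M cells (4.33% to 5.29%) and 4.99% of the 18 M cells (4.53% to 5.48%). The NB interval lay above the other 3, and each of those overlapped with its neighbour in age. The marker step of the rule left out 91 of 566 cells with both S100 genes in 18 M. It left out 6 of 603 at NB, 9 of 246 at 2 M and 21 of 445 at 10 M. The shares and their overlap thus hold for this rule only. These intervals, like all others here, cover counting error only, since the spread between animals was not measured. Fewer cells of a type and a lower yield in digestion cannot be told apart. Neutrophils gave fewer UMIs than other cells. Their median was 3361 at NB, 3115 at 2 M, 3029 at 10 M and 2546 at 18 M UMIs, against 4321, 4259, 4069 and 4456 UMIs in the other cells, in order of age. With each cell thinned to 500 UMIs, the median neutrophil still showed fewer genes, 240 at NB, 265 at 2 M, 248 at 10 M and 277 at 18 M, against 335 to 353 in the other cells. The difference was in the same direction in 4 of 4 libraries, with a mean log2 ratio of -0.41 ± 0.064 (SD, n = 4 libraries) for the thinned count and -0.51 ± 0.20 for UMIs (exact sign-flip permutation test, two-sided, p = 0.13, adjusted p = 0.13 over 3 measures, the smallest p that 4 libraries allow). The rule bears on both measures. It asked for S100a8 and S100a9, whose UMIs leave fewer for other genes. It also left out cells with other markers, which had a median of 5680 to 7984 UMIs. The test thus cannot tell a trait of neutrophils from the way they were chosen.

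**Figure D1:**
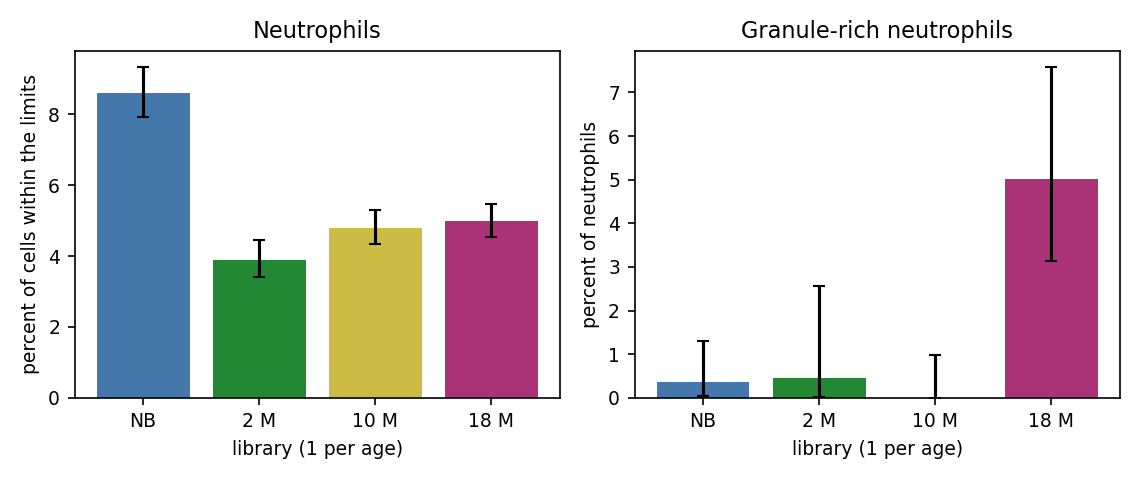
Left, neutrophils as a percent of the cells within the limits, and right, granule-rich neutrophils as a percent of neutrophils, in the 4 libraries in order of age. Bars are shares and error bars 95% exact binomial intervals. The NB share, 8.61%, is the highest on the left, and the 18 M share, 5.02%, on the right.

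Some features of the libraries touch what follows. Xist, which coats the inactive X chromosome of females, had UMIs in 3044 of 8377 cells of the library labelled 18 M and in 5 to 20 cells of each other library, although all are labelled male. Among neutrophils, 39 of 418 in that library had Xist, 155 had a UMI of the Y-linked genes Ddx3y, Eif2s3y, Uty or Kdm5d, and 9 had both, so 2 stefin A genes and several list medians of 18 M are also given for the 146 neutrophils with Y-linked and no Xist UMIs. RNA of several other cell types was also more abundant there, though not that of B and NK cells. Over 5 alveolar type II and airway genes, neutrophils had 207.4 CPM at NB, 166.6 at 2 M, 760.9 at 10 M and 4632 at 18 M, with Retnla at 0 in 2 M. Sftpc, a surfactant gene of alveolar type II cells, had 114 CPM at NB, 135 at 2 M, 628 at 10 M and 3426 at 18 M in neutrophils and 67.6, 64.4, 444 and 1639 CPM in the T cells of the same libraries. Haemoglobin RNA made up a median of 0.0822% at NB, 0.0357% at 2 M, 0.0633% at 10 M and 0.265% at 18 M of a neutrophil's UMIs, and 8 neutrophils at NB, 0 at 2 M, 11 at 10 M and 20 at 18 M had at least 1%. Over 5 stromal genes, neutrophils had 10.8 CPM at NB, 24.4 at 2 M, 235.2 at 10 M and 569 at 18 M. The alveolar macrophage genes summed to 33.8 CPM at NB, 63.7 at 2 M, 38.6 at 10 M and 378 at 18 M. Of these, 4 of 4 genes with enough UMIs were at least 2-fold higher in 18 M than in 2 M, beside 8.72% of all genes measured. The B cell genes went the other way in 18 M, with 739.5 CPM at NB, 448.4 at 2 M, 979.5 at 10 M and 232 at 18 M, and so did 5 NK cell genes, with 331.3, 803.4, 961.4 and 71.5 CPM. Most of the NK sum was Ccl5, with 321, 528, 824 and 44.5 CPM, and most Ccl5 UMIs lay in 33 cells. Over 5 erythroid genes, neutrophils had 22967 CPM at NB, 447 at 2 M, 20104 at 10 M and 41397 at 18 M, and the T cells 8342, 6739.5, 11775 and 20227 CPM. The part of this RNA in the results below was not tested unless a value without such cells is given. No cell barcode was shared between the neutrophils of any pair of libraries.

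The stefin A genes stood far apart between libraries. The genes from Csta1 to Stfa3 lie at chr16:36119946-36455392 (mm10), 10 protein-coding genes in a row, and this set was chosen after its values were seen, so it is described without a test. Summed over the set, they took 0.176% of neutrophil UMIs at NB, 0.0854% at 2 M, 0.128% at 10 M and 4.14% at 18 M. The level in 18 M was 48.5-fold that in 2 M (interval 44.8 to 52.6), while NB was 2.06-fold and 10 M 1.5-fold that in 2 M. Of the 10 highest ratios of 18 M to 2 M among all genes measured, 6 belonged to this set.

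Stfa1 had 88.1 CPM at NB, 16.3 at 2 M, 52.9 at 10 M and 8035 at 18 M. The 12 UMIs of 2 M make its ratio of 18 M to 2 M, 494 (interval 283 to 957), imprecise, but 18 M was also 91.2 times the highest of the other 3 libraries. Stfa2 had 36.9 CPM at NB, 1.35 at 2 M, 3.03 at 10 M and 3678 at 18 M, from a single UMI in 2 M. Stfa3 had 15.9 CPM at NB, 2.71 at 2 M, 9.83 at 10 M and 1115 at 18 M, again with the other 3 libraries far below. BC100530, which lies between Stfa1 and Stfa2, had 66.6 CPM at NB, 4.06 at 2 M, 15.9 at 10 M and 8092 at 18 M. These 4 genes had at most 88.1 CPM outside the library labelled 18 M, and 2010005H15Rik and Gm5416 were as low there. 2010005H15Rik had 7.68 CPM at NB, 9.48 at 2 M, 12.9 at 10 M and 3472 at 18 M. Gm5416 had 21.0 CPM at NB, 8.13 at 2 M, 7.56 at 10 M and 1198 at 18 M.

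Other members were expressed in all libraries or in almost none. Stfa2l1 was present at every age, with 670.4 CPM at NB, 406 at 2 M, 599 at 10 M and 4857 at 18 M, and its ratio of 18 M to 2 M was 12.0 (interval 10.6 to 13.5). Gm5483, its neighbour, had 851 CPM at NB, 405 at 2 M, 579 at 10 M and 10916 at 18 M and a ratio of 26.9 (interval 24.0 to 30.3). Both were thus expressed at every age and had the smallest ratios of the 8 members with a UMI in 2 M. BC117090 had 58 UMIs in 18 M and 0 in 2 M, which puts it at least 10.4-fold higher, with 3 UMIs over the 2 M neutrophils as the floor. Csta1, at the edge of the set, had 1 UMI at NB, 0 at 2 M and 10 M and 1 in 18 M. Apart from Csta1, with 1 UMI, the members were far higher in 18 M than in any other library.

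The messages were spread over the cells. In the library labelled 18 M, 418 of 418 neutrophils had a stefin A UMI, against 295 of 549 at NB, 85 of 216 at 2 M and 202 of 377 in 10 M. At 500 UMIs per cell the shares were 31.5% at NB, 20.8% at 2 M, 30.8% at 10 M and 98.3% at 18 M, against 0.380%, 0%, 0% and 2.18% of the T cells, which should lack these RNAs. The median number of stefin A genes with a UMI in a cell was 1 at NB, 0 at 2 M, 1 at 10 M and 7 at 18 M, and 5 or more of the 10 were present in 374 of the 418 cells of 18 M but in 2 cells of NB, none of 2 M and 2 of 10 M. Stefin A RNA took a median of 0.0340% at NB, 0% at 2 M, 0.0336% at 10 M and 4.06% at 18 M of a neutrophil's UMIs, and the highest cell reached 2.68% at NB, 1.06% at 2 M, 1.70% at 10 M and 17.1% at 18 M. The lower quartile of 18 M, 1.91%, lay above the 95th percentile of each other library, at most 0.770%. Within 18 M the gap was present in cells with Y-linked UMIs and in those with Xist. Stfa1 had 7780.4 CPM in the 146 Y-linked cells and 7005 CPM in the 30 cells with Xist only, and Gm5483 had 10017 and 9589 CPM.

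**Figure D2:**
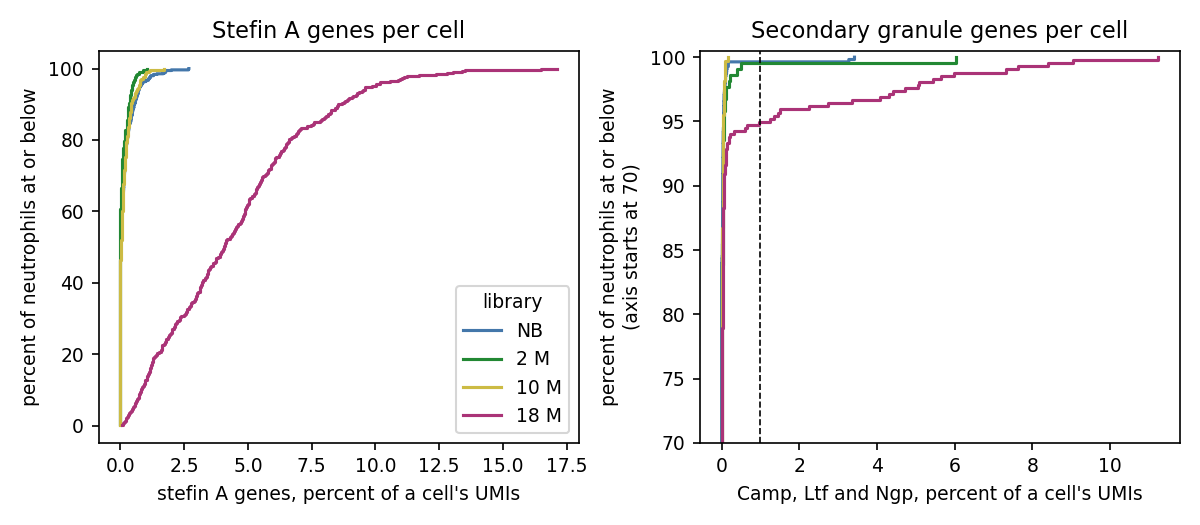
Cumulative share of neutrophils (vertical axis, percent of cells) by the percent of a cell's UMIs from the 10 stefin A genes (left) and from Camp, Ltf and Ngp (right, with the vertical axis starting at 70), 1 line per library. The 18 M line stands apart over nearly the whole range on the left, where its median is 4.06%, and only in the top few percent on the right, where the dashed line marks the 1% limit for granule-rich cells.

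The genes on either side differed less. The 5 nearest protein-coding genes on each side that passed a minimum of UMIs had ratios of 18 M to 2 M between 0.761 and 5.50, with a median of 1.13, against 12.0 or more for the 8 stefin A members with a UMI in 2 M. At least 2-fold higher in 18 M were 3 of these 10, beside 8.72% of all genes measured. Hcls1, an adaptor protein of blood cells, had 254 CPM at NB, 226 at 2 M, 157 at 10 M and 179 at 18 M. Cd86, a costimulatory receptor on the far side of Stfa3, had 14.9 CPM at NB, 8.13 at 2 M, 15.9 at 10 M and 23.4 at 18 M. In T cells the summed stefin A level was 11.6 at NB, 2.32 at 2 M, 3.54 at 10 M and 105 at 18 M CPM, so the library labelled 18 M was highest there too, far below its neutrophils. Stefin A genes are near copies of each other: between 0% and 30.6% of the 60-base stretches in the last 400 bases of a member's transcripts also occur in another member's. Reads from such stretches may have been divided between copies or dropped in the counting. The sum avoids the first but would miss dropped reads, as single members would.

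**Figure D3:**
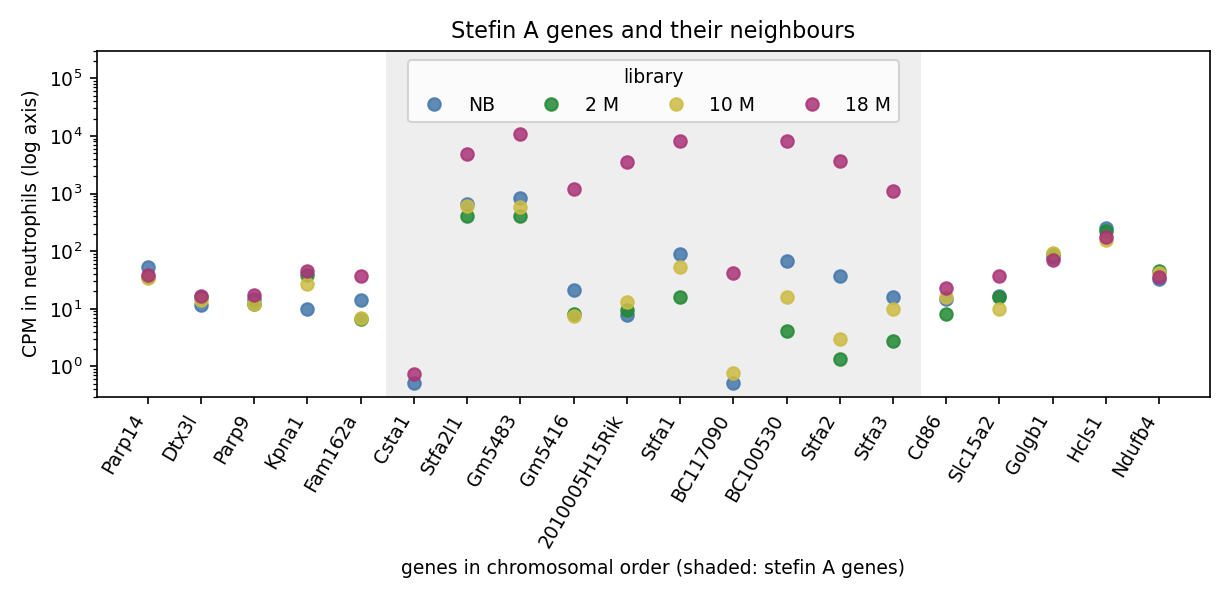
Level in neutrophils (CPM, log axis) of the 10 stefin A genes (shaded) and of their 5 neighbours on each side, in chromosomal order, 1 point per library; levels of 0 are not drawn. All shaded genes are highest in 18 M, where Stfa1 reaches 8035 CPM, although Csta1 rests on 1 UMI there.

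Maturity was read first from granule genes, in the order in which they are switched on. Primary granule genes mark promyelocytes. Elane, Ctsg and Ms4a3 had 0 UMIs in the neutrophils of all 4 libraries, Mpo had at most 2 UMIs and Prtn3 at most 4 UMIs in any library. The rule asked for at least 2 of Csf3r, Cxcr2, Retnlg and G0s2, so stages without these RNAs could not be taken. These low counts therefore describe the chosen members and do not show whether promyelocytes were captured. Specific granule genes mark the next stage. Camp, the cathelicidin gene, had 56.8 CPM at NB, 127 at 2 M, 5.29 at 10 M and 1858 at 18 M. Ngp, neutrophilic granule protein, had 168 CPM at NB, 411 at 2 M, 10.6 at 10 M and 2489 at 18 M, and Ltf, lactoferrin, had 53.3 CPM at NB, 153 at 2 M, 42.4 at 10 M and 405 at 18 M. In these sums all 3 were highest in 18 M and lowest in 10 M, an order that rests in large part on few cells, as given below. Of 11 specific granule genes, 9 had at least 10 UMIs in 18 M and 2 M together. Among these 9, 6 were at least 2-fold higher in 18 M and none was at 0.5-fold or below, while 8.72% of the 4415 genes measured were at least 2-fold higher and 4.71% at 0.5-fold or below. The median log2 ratio of the list was 1.86, against 0.03 over all genes measured.

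Most of this RNA lay in few cells. A neutrophil was called granule-rich when Camp, Ltf and Ngp together took at least 1% of its UMIs, and there were 2 such cells at NB, 1 at 2 M, 0 at 10 M and 21 at 18 M. The share in 18 M was 5.02% (interval 3.14% to 7.58%), against 0.364% in NB (0.0441% to 1.31%), 0.463% in 2 M (0.0117% to 2.55%) and 0 of 377 cells in 10 M, which allows a share of up to 0.796%. The 18 M interval lay above all the others. Most members, 1276 of 1560, had none of the 3 RNAs, 8 lay between 0.5% and 2%, and 11 were at 5% or more, with a highest value of 11.2% in 18 M. No T cell of any library reached the limit. The 21 cells held 96.6% of the Camp UMIs, 96.8% of the Ngp UMIs and 92.4% of the Ltf UMIs of the 18 M neutrophils. The 1 granule-rich cell of 2 M held 78.7% of the Camp, 90.1% of the Ngp and 53.1% of the Ltf UMIs of that library. The 2 cells of NB held 95.5%, 73.8% and 40.4%. With no such cell in 10 M, its place as the lowest in these sums rests in large part on these few cells. Without granule-rich cells in any library, the median log2 ratio of the specific granule list was 0.50, and Ltf was lower in 18 M than in 2 M, with a log2 ratio of -1.10.

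The granule-rich cells of 18 M also differed from the other 397 neutrophils of their library in genes that did not choose them. Ly6g had 245 CPM in the granule-rich cells and 24.1 CPM in the others. Ly6g encodes the surface protein used to mark mouse neutrophils. Cd177 had 790.4 CPM in the granule-rich cells and 24.9 CPM in the others, a glycoprotein stored with specific granules. Mmp8 had 1178 CPM in the granule-rich cells and 193 CPM in the others, which is neutrophil collagenase. Retnlg had 20946 CPM in the granule-rich cells and 4076 CPM in the others, though Retnlg was among the genes that could choose a neutrophil. Genes of a later state were not alike. Il1b had 3257 CPM in the granule-rich cells and 9174 CPM in the others, the gene of a fever-inducing cytokine. Cxcl2 had 7019 CPM in the granule-rich cells and 19724 CPM in the others, a chemokine that draws in more neutrophils. Ccl4 had 356 CPM in the granule-rich cells and 1651 CPM in the others, and Icam1 had 39.5 CPM in the granule-rich cells and 232 CPM in the others, the adhesion ligand, all 4 lower in the granule-rich cells. Itgam had 767 CPM in the granule-rich cells and 267 CPM in the others, so this integrin gene was higher there, and Osm had 339.9 CPM in the granule-rich cells and 340.2 CPM in the others. Nor was every granule gene higher, as Slc11a1 had 111 CPM in the granule-rich cells and 336 CPM in the others, a metal transporter of the granule membrane. Stefin A genes were not alike in this. Stfa2l1 had 4703 CPM in the granule-rich cells and 4873 CPM in the others, a ratio of 0.97 (interval 0.89 to 1.05). Stfa3 had 5959.8 CPM in the granule-rich cells and 622 CPM in the others. The stefin A signal was present in both, and without granule-rich cells the 18 M level of Stfa1 was 7713 CPM. Chil3, a granule gene that alveolar macrophages also express, had 23.6 CPM at NB, 48.8 at 2 M, 7.56 at 10 M and 282 at 18 M, and T cells had 123 CPM of it in 18 M. Median UMIs were 5823 in the 21 granule-rich cells and 2519 in the others. Of the 21 cells, 12 had Y-linked UMIs and 4 had Xist.

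Few neutrophils had RNA of division genes. At all UMIs, cells with at least 2 of Mki67, Top2a, Birc5, Ccna2, Cdk1 and Ube2c numbered 1 at NB, 0 at 2 M, 0 at 10 M and 2 at 18 M, and at 500 UMIs per cell 0, 0, 0 and 1. In T cells of the same libraries the counts at all UMIs were 26 at NB, 4 at 2 M, 16 at 10 M and 90 at 18 M, and at 500 UMIs 1, 0, 1 and 11. A depth of 500 UMIs thus removed most such T cells, and a count of 0 at that depth sets no limit on division. At all UMIs, 0 cells allow a share of such cells of up to 1.39% in 2 M and 0.796% in 10 M. Mki67, the proliferation antigen, had 2.05 CPM at NB, 8.13 at 2 M, 6.81 at 10 M and 53.3 at 18 M, a ratio of 18 M to 2 M of 6.56 (interval 2.87 to 18.4), and 1 of its 73 UMIs in 18 M came from a granule-rich cell. A subcluster led by haemoglobin genes had 328 CPM of Mki67, and without it and the subcluster led by NK cell genes the log2 ratio was -1.69, so the direction turned. T cells of 18 M had 76.8 CPM of Mki67.

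Genes of the mature neutrophil were then compared. Il1b had 13160.5 CPM at NB, 9642 at 2 M, 9572 at 10 M and 8627 at 18 M. Slpi, a secreted protease inhibitor, had 7039 CPM at NB, 9794 at 2 M, 8746 at 10 M and 4513 at 18 M. Both were lowest in 18 M in these sums. The median neutrophil took 1.38% at NB, 0.934% at 2 M, 0.854% at 10 M and 0.911% at 18 M of its UMIs from Il1b. By that measure 10 M was the lowest. Of the 14 genes of the mature list, 1 was at least 2-fold higher in 18 M than in 2 M (Stfa2l1) and 1 at 0.5-fold or below (Slpi), near the 8.72% and 4.71% of all genes measured, with a median log2 ratio of -0.28 beside 0.03. In NB none of the 14 passed 2-fold in either direction, with a median of -0.03 beside -0.33 over all genes, and 2.71% of 4359 genes were at least 2-fold higher and 10% at 0.5-fold or below. In 10 M none passed either, with a median of -0.12 beside -0.15 over all genes, and 3% of 4199 genes were at least 2-fold higher and 3.17% at 0.5-fold or below. Cxcr4, the receptor that returns aged neutrophils to the marrow, had 143 CPM at NB, 209 at 2 M, 158 at 10 M and 158 at 18 M, with 2 M the highest. Of 7 genes of the aged and tissue-exposed list with at least 10 UMIs, 2 were at least 2-fold higher in 18 M, beside 8.72% of all genes measured. Ptgs2, the cyclooxygenase of prostaglandin synthesis, was 1 of these 2, with a ratio of 18 M to 2 M of 3.5 (interval 3.25 to 3.77). It had 1861 CPM at NB, 1131 at 2 M, 1256 at 10 M and 3957 at 18 M. The monocytes of the same libraries had 3458, 1514, 2200 and 9604 CPM of Ptgs2. Its higher level in 18 M was thus not particular to neutrophils. Tlr4, the other, rested on 20 UMIs in 18 M and 3 in 2 M.

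Chemokine and cytokine RNA was nearly universal. Cells with at least 2 of Ccl3, Ccl4, Cxcl2 and Tnf made up 79.2% at NB, 73.1% at 2 M, 73.5% at 10 M and 82.5% at 18 M of neutrophils at 500 UMIs, against 1.98% at NB, 0.463% at 2 M, 1.89% at 10 M and 1.82% at 18 M of T cells. Cxcl2 had 41616 CPM at NB, 40518 at 2 M, 45041 at 10 M and 18551 at 18 M, and its ratio of 18 M to 2 M was 0.458 (interval 0.450 to 0.466). The median neutrophil took 4.14% at NB, 3.77% at 2 M, 4.48% at 10 M and 1.93% at 18 M of its UMIs from Cxcl2. Cxcl3, a related ligand of Cxcr2, had 673 CPM at NB, 1134 at 2 M, 1332 at 10 M and 189.8 at 18 M, a ratio of 0.167 (interval 0.145 to 0.193). Both ligands of Cxcr2 were thus lowest in 18 M. Other members of the list were higher in 18 M. Tnf, a cytokine that activates endothelium, had 167 CPM at NB, 146 at 2 M, 130.1 at 10 M and 296 at 18 M, a ratio of 2.02 (interval 1.63 to 2.52). Osm, oncostatin M, had 183 CPM at NB, 104 at 2 M, 119.5 at 10 M and 340.2 at 18 M, a ratio of 3.26 (interval 2.56 to 4.21). In monocytes 18 M was highest for both, with Tnf at 92.8, 106, 126 and 147 CPM in order of age. Osm had 71.9, 50.6, 45.8 and 145 CPM there, from 10 UMIs in 2 M. Ccl3, a chemokine for monocytes and lymphocytes, had 4157 CPM at NB, 3498 at 2 M, 3479 at 10 M and 4535 at 18 M. Of the 10 genes of the list, 2 were at least 2-fold higher and 2 at 0.5-fold or below in 18 M, beside 8.72% and 4.71% of all genes measured, with a median log2 ratio of -0.14 beside 0.03. G0s2, a rule gene, was also lowest in 18 M, with 6499 CPM at NB, 3609 at 2 M, 4199 at 10 M and 1249.7 at 18 M, and its level carries the choice of the members with it.

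**Figure D4:**
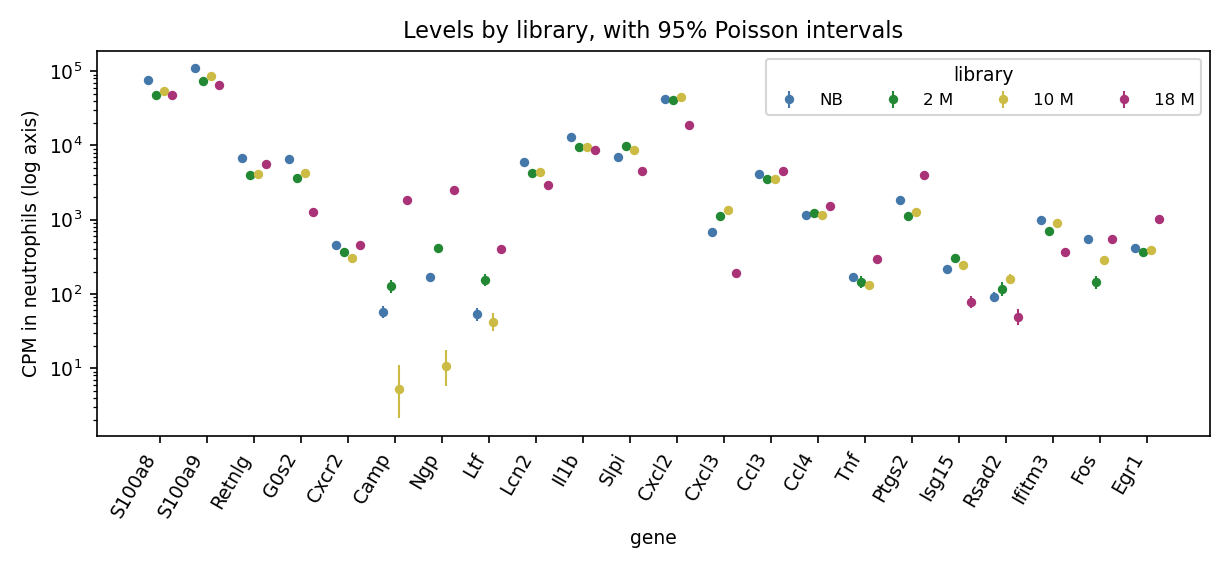
Levels in neutrophils (CPM, log axis) of 22 genes of the lists, by library, with 95% Poisson intervals. Camp, Ngp and Ltf are highest in 18 M and lowest in 10 M, and Cxcl2, Cxcl3, G0s2 and Isg15 are lowest in 18 M. The order for Camp, Ngp and Ltf rests in large part on a few granule-rich cells.

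Interferon-stimulated genes, which cells switch on in response to type I and II interferons, were mostly lowest in 18 M. Isg15, an ubiquitin-like protein, had 216 CPM at NB, 301 at 2 M, 245 at 10 M and 78.8 at 18 M, and Ifitm3, which restricts viral entry, had 1002 CPM at NB, 709 at 2 M, 914 at 10 M and 369 at 18 M. Rsad2, the antiviral enzyme viperin, had 91.2 CPM at NB, 117 at 2 M, 159.6 at 10 M and 48.9 at 18 M. In each, 18 M was the lowest library. Of 10 genes, 7 had at least 10 UMIs in 18 M and 2 M together, and all 7 were lower in 18 M with an interval below 1. Of these 7, 3 were at 0.5-fold or below, beside 4.71% of all genes measured, and the median log2 ratio was -0.94 beside 0.03. For the 146 cells with Y-linked and no Xist UMIs, the median was -0.89. In 10 M the median was 0.37 over 9 genes, but the direction turned, to -0.022, without the subclusters led by NK cell or haemoglobin genes, and to -0.021 as a mean over cells. In NB it was -0.07 over 7 genes, where Oasl2, with 127 CPM at NB, 56.9 at 2 M, 73.4 at 10 M and 34.3 at 18 M, was 1 of 3 members that were highest in NB. Cells with at least 2 of Isg15, Ifit1, Ifit2, Ifit3, Rsad2 and Cmpk2 made up 1.09% at NB, 1.39% at 2 M, 1.33% at 10 M and 0.239% at 18 M at 500 UMIs, with overlapping intervals. At all UMIs the shares were 8.38% at NB, 6.94% at 2 M, 10.9% at 10 M and 2.87% at 18 M, against 5.40% at NB, 4.28% at 2 M, 3.48% at 10 M and 6.82% at 18 M of T cells, and the median neutrophil of 18 M was the shallowest of the 4.

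Immediate early genes, which respond within minutes to stimuli including tissue dissociation, were mostly higher in 18 M. Fos had 551 CPM at NB, 144 at 2 M, 289.7 at 10 M and 546 at 18 M, Egr1 had 414 CPM at NB, 364 at 2 M, 387 at 10 M and 1021 at 18 M and Ier2 had 261 CPM at NB, 150.4 at 2 M, 185 at 10 M and 376 at 18 M. Of 12 genes, 5 were at least 2-fold higher in 18 M than in 2 M and none at 0.5-fold or below, beside 8.72% and 4.71% of all genes measured, with a median log2 ratio of 0.65 beside 0.03. In NB 2 were at least 2-fold higher (Fos and Zfp36), beside 2.71% of all genes, with a median of 0.20 beside -0.33. In 10 M 2 were (Fos and Fosb), beside 3% of all genes, with a median of 0.14 beside -0.15. Jund and Nfkbia were lower in 18 M than in 2 M, and Nfkbia, the inhibitor of NF-kB, had 6923 CPM at NB, 6022 at 2 M, 5224 at 10 M and 3732 at 18 M. In T cells Fos had 429 CPM at NB, 234 at 2 M, 325 at 10 M and 214 at 18 M, so that the order of the libraries was not that of neutrophils.

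Receptor, oxidase, adhesion and transcription factor genes were compared next. Over all genes measured, 8.72% were at least 2-fold higher than 2 M and 4.71% at 0.5-fold or below in 18 M. The shares were 2.71% and 10% in NB and 3% and 3.17% in 10 M. In lists this short, the few genes past 2-fold named below do not set a list apart from these shares. Of 8 chemotactic receptor genes with at least 10 UMIs, none passed 2-fold in any of the 3 comparisons. Fpr2, a receptor for formyl peptides, had 506 CPM at NB, 513 at 2 M, 418 at 10 M and 788 at 18 M, and C5ar1, the receptor for complement C5a, had 618 CPM at NB, 626 at 2 M, 542 at 10 M and 591 at 18 M. In 10 M all 8 were lower than in 2 M, 7 of them with an interval below 1, and the median was -0.32 beside -0.15 over all genes. Of 10 pattern and Fc receptor genes, Tlr4 was at least 2-fold higher than 2 M in all 3 comparisons, from 20 UMIs in each of NB, 10 M and 18 M and 3 in 2 M, and Fcgr4 and Fcgr2b were at 0.5-fold or below in NB. Tlr2, which senses bacterial lipoproteins, had 199 CPM at NB, 271 at 2 M, 177 at 10 M and 501 at 18 M, a ratio of 18 M to 2 M of 1.85 (interval 1.58 to 2.17). Monocytes had 135, 81.0, 71.3 and 265 CPM of Tlr2 in order of age, so 18 M was highest there too. Cybb, the catalytic subunit of the NADPH oxidase, had 100.4 CPM at NB, 108 at 2 M, 46.1 at 10 M and 289.8 at 18 M. Among 6 oxidase genes it alone passed 2-fold in 18 M. In 10 M it was lowest, with a ratio to 2 M of 0.426 (interval 0.30 to 0.602). The integrin genes Itgal, with 227 CPM at NB, 309 at 2 M, 208 at 10 M and 546 at 18 M, and Itgam, with 196 CPM at NB, 244 at 2 M, 188 at 10 M and 313 at 18 M, were highest in 18 M. Of 8 adhesion genes, only Ceacam1 was past 2-fold in 18 M, where it had 17.5 CPM, against 37.9 CPM in 2 M. The transcription factor genes Spi1, with 999 CPM at NB, 971 at 2 M, 839 at 10 M and 593 at 18 M, and Cebpb, with 5685 CPM at NB, 5477 at 2 M, 5404 at 10 M and 3737 at 18 M, were lowest in 18 M, both being needed for myeloid differentiation.

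Over the 146 cells of 18 M with Y-linked and no Xist UMIs, the median log2 ratio to 2 M of the specific granule list was 2.44, against 1.86 over all 18 M neutrophils. It was -0.41 against -0.28 for the mature list, -0.074 against -0.14 for cytokines and chemokines and 0.67 against 0.65 for immediate early genes. For the NADPH oxidase list it was -0.26 against -0.18. The small medians of the chemotactic receptors, -0.017 against 0.070, and of the adhesion genes, -0.066 against 0.065, changed sign.

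**Figure D5:**
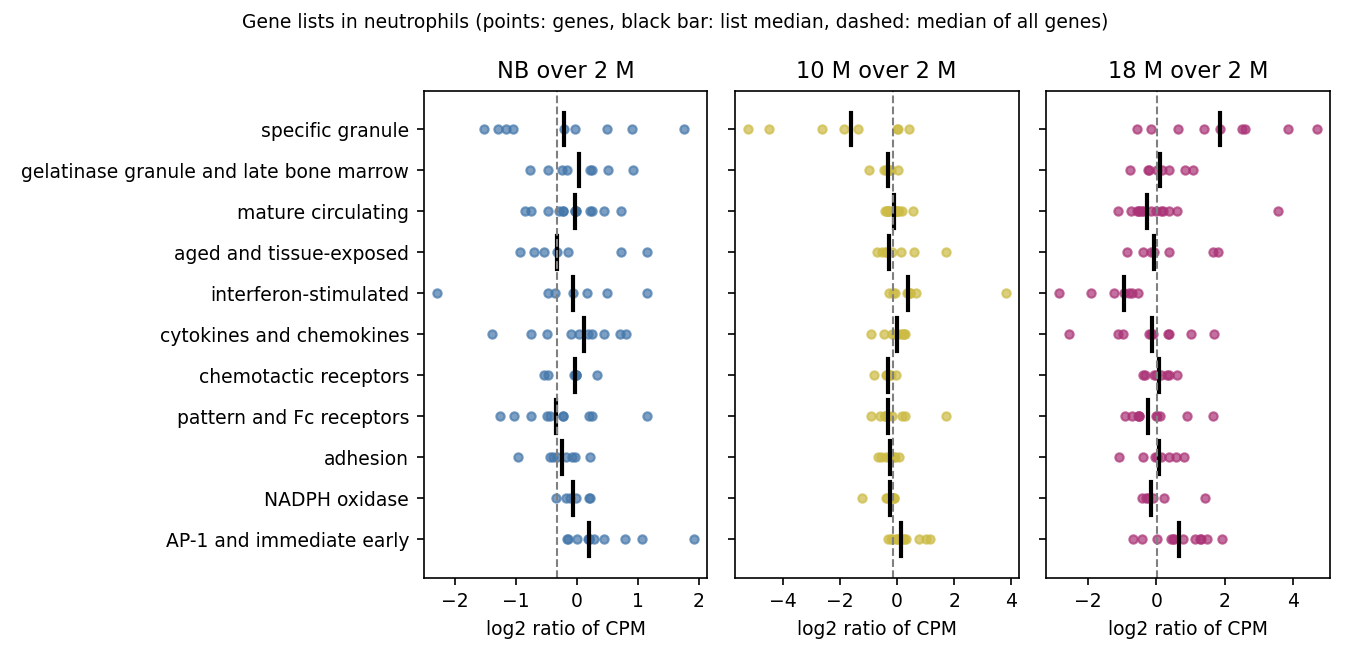
Log2 ratio of CPM to 2 M in neutrophils for each gene with at least 10 UMIs in the pair of libraries (points), by gene list (rows), for NB, 10 M and 18 M. The black bar is the list's median and the dashed line the median over all genes measured. In 18 M the specific granule list (median 1.86) lies to the right of the dashed line and the interferon list (-0.94) to its left.

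Genes that differed most between NB and 2 M were then described, some from the 10 highest or lowest ratios and others chosen after their values were seen. Wfdc17, a small secreted protein of myeloid cells, had 6798 CPM at NB, 874 at 2 M, 1993 at 10 M and 699 at 18 M, a ratio of NB to 2 M of 7.78 (interval 7.19 to 8.43). It took a median of 0.518% at NB, 0% at 2 M, 0.0715% at 10 M and 0% at 18 M of a neutrophil's UMIs, and 515 of 549 NB neutrophils had it, against 102 of 216 in 2 M. Wfdc17 was not among the 10 highest ratios and was chosen after its values were seen. Cxcr1, a receptor for chemokines, had 37.4 CPM at NB, 4.06 at 2 M, 9.83 at 10 M and 0 at 18 M, from 73, 3, 13 and 0 UMIs, and was chosen in the same way. Nos2, the inducible nitric oxide synthase, was among the 10 highest, with 34 UMIs at NB, 0 at 2 M and 10 M and 1 in 18 M, at least 4.28-fold higher in NB than in 2 M. Jchain, an immunoglobulin chain of plasma cells, had 83 UMIs in NB and none elsewhere, that is 42.5 CPM in NB neutrophils, against 24.4 CPM in NB T cells. The haemoglobin genes Hbb-bt, Hba-a1, Hba-a2 and Hbb-bs filled 4 more of the 10 places. These genes, like Stfa2 and BC100530 among the same 10, were highest in 18 M and lowest in 2 M, so they do not set NB apart. At the low end Cebpa, a factor of early granulocyte differentiation, had 5.12 CPM at NB, 33.9 at 2 M, 12.1 at 10 M and 24.1 at 18 M, a ratio of 0.151 (interval 0.0648 to 0.326), and Trp53, the tumour suppressor p53, had 11.3 CPM at NB, 54.2 at 2 M, 22.7 at 10 M and 35.0 at 18 M, a ratio of 0.208 (interval 0.118 to 0.358). The median log2 ratio of all genes was -0.33. With totals that leave out S100a8, S100a9 and the haemoglobin, mitochondrial and ribosomal genes it was -0.19.

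Outside the stefin A set, the 10 highest ratios of 18 M to 2 M held Retnla, Hbb-bt, Slc34a2 and Alas2. Retnla, a resistin-like protein, had 0.512 CPM at NB, 0 at 2 M, 0.756 at 10 M and 359 at 18 M and was in 85 of 418 cells of 18 M. T cells of that library had 50.0 CPM. The 10 lowest held the chemokine Ccl5, with 321 CPM at NB, 528 at 2 M, 824 at 10 M and 44.5 at 18 M, and the MHC class II genes H2-Aa, H2-Eb1 and H2-Ab1. Most of the Ccl5 UMIs over the 4 libraries, 2028, lay in 33 cells of the subcluster led by NK cell genes. Ccl5 had 3291 CPM in that subcluster and 29.4 CPM in the other neutrophils. H2-Aa had 298 CPM at NB, 198 at 2 M, 392 at 10 M and 32.8 at 18 M. These are genes of lymphocytes and antigen-presenting cells, and the T cells of 18 M and 2 M had 483 and 745 CPM of Ccl5, while for H2-Aa the T cells of 18 M were the higher, with 37.0 CPM against 23.0 CPM in 2 M. Among the 10 highest of 10 M over 2 M were 4 haemoglobin genes and Sftpa1, Sftpc, Mgp and Gsn. Mgp, a matrix protein, had 21.0 CPM at NB, 154 at 2 M, 941 at 10 M and 32.1 at 18 M. Most of its UMIs over the 4 libraries, 1338, lay in 16 cells of the subcluster led by NK cell genes. That subcluster had 2172 CPM of Mgp, against 22.0 CPM in the other neutrophils. Without the subclusters led by NK cell or haemoglobin genes the log2 ratio of Gsn in 10 M was -0.50, so its direction turned, and Sftpc turned to -0.30 without cells rich in haemoglobin. The heat-shock genes Hspa1a, with 18.9 CPM at NB, 13.5 at 2 M, 65.1 at 10 M and 39.4 at 18 M, and Hspa1b completed them. Among the lowest of 10 M were Chil3 and Ltf, with Padi4, the enzyme that citrullinates histones in neutrophil traps, at 34.8 CPM at NB, 32.5 at 2 M, 9.83 at 10 M and 21.2 at 18 M. Of the Ltf UMIs of 2 M, 53.1% lay in its 1 granule-rich cell.

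Clustering of the 1560 cells gave 7 groups at resolution 0.5, 6 at 0.25 and 10 at 1, and libraries were unevenly spread over them. Group sizes were 621, 432, 356, 65, 32, 28 and 26 cells. The first held 167 of 216 cells of 2 M and 259 of 377 of 10 M, led by genes such as Inhba and Cxcl3. The second held 326 of 549 NB cells, with Cxcr1, Wfdc17 and Ly6g among its leading genes. The third held 354 of its 356 cells from 18 M, led by Retnla and surfactant genes with the stefin A genes Gm5416 and 2010005H15Rik among its first 10. A group mostly of 1 library may be that library and not a state. The 32-cell group was led by Camp and Ngp and had 26 cells from 18 M, 3 from NB and 3 from 2 M. The 65-cell group had a median of 8583 UMIs and Eomes, Gzma, Ccl5 and Nkg7, genes of NK and T cells, in the lead, and its cells came from all 4 libraries. Doublets were not called, and these 65 cells were kept as members. The 28-cell group was led by mitochondrial genes and the 26-cell group by haemoglobin genes. No group was given a cell type name of its own.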

How the data were processed

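Droplet 3′ libraries of whole-lung cells were sequenced for 4 ages, with no repeat of any age. The deposited files hold counts: whole numbers of UMIs per gene and cell barcode. Per the study's methods the authors processed the ages together and made the counts with Cell Ranger 3.0.2 on mm10 and analysed them with Seurat 2.0, while the file headers name software version 3.1.0. The members and gene lists were chosen with earlier results of these data known. The stefin A set and its neighbours were chosen after their values were seen.

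Cells were selected as given at the start of the report. Counts of the neutrophils of a library were summed and scaled to CPM, with exact Poisson intervals for levels, exact conditional binomial intervals for ratios and Clopper-Pearson intervals for shares, all at 95%. With 1 library per age there was no test between ages, and intervals cover counting error only. The summed depth was 1952655 UMIs at NB, 738122 at 2 M, 1322046 at 10 M and 1369943 at 18 M, so that 1 UMI was worth 0.512, 1.35, 0.756 and 0.730 CPM. For log2 ratios 0.5 UMIs were added. A gene entered the counts of 2-fold differences with at least 30 UMIs in the pair of libraries, and a list's summary with at least 10. A level of 0 was bounded by 3 UMIs. Granule-rich cells were called on all UMIs. The chemokine, interferon and division states were counted after thinning each cell to 500 UMIs, which every neutrophil and T cell had. Division and interferon counts are also given at all UMIs. Genes named are the rule genes, list members, and the 10 highest and 10 lowest ratios among genes with at least 30 UMIs, at least 15 cells with a UMI in the higher library and an interval that excludes 1. Any other gene is said to be chosen after its values were seen. The level of 1 list gene is not reported here, although the list counts include it. Cells were clustered on 1000 variable genes, 20 components and 15 neighbours at resolution 0.5 (scanpy 1.11.5, leidenalg 0.10.2). Doublets were not called. Intervals came from scipy 1.17.1, tables from pandas 2.3.3 and numpy 2.4.6, alignments from Biopython 1.88 and plots from matplotlib 3.10.9, under Python 3.11.15. The scripts were tested on simulated data. Alternatives covered the selection, minimum of UMIs, scaling and thinning, and cells left out.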

Additional observations from a re-analysis of the deposited data

How the results depend on the processing

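No paired analysis was possible because each age had 1 library. For the same reason the spread between animals is unknown. Low counts in 2 M, which had the fewest neutrophils and the smallest sum of their UMIs, limit the ratios of rare RNAs. Among alternative values of the main results, 301 kept direction and size, 38 moved and 3 changed direction. Among those of single genes and minor lists, 5089 kept direction and size, 343 moved and 24 changed direction. Leaving out cells (granule-rich, rich in haemoglobin, in subclusters led by NK cell or haemoglobin genes, or without Y-linked UMIs in 18 M) was chosen after seeing the data, and the causes of the changes below were not tested.

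When cells with a UMI of 6 further markers (Cd3d, Ms4a1, Nkg7, Ear2, Ccr3, Csf1r) were left out, the neutrophil share was 6.19% at NB, 2.998% at 2 M, 3.76% at 10 M and 3.19% at 18 M. The interferon list then had a median log2 ratio of -1.14 in 18 M and -0.013 in 10 M, the cytokine list -0.16 in 10 M and the stefin A set 0.90 in 10 M. Log2 ratios of 18 M to 2 M were 0.00693 for S100a8, -1.25 for Mki67 and -0.019 for Ccl4, and those of NB to 2 M were -0.041 for Cxcl2 and 1.54 for Ccl5.

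With a minimum of 15 UMIs, genes at least 2-fold higher and at 0.5-fold or below numbered 725 and 394 in 18 M, 205 and 856 in NB and 323 and 320 in 10 M. With 75 they numbered 180 and 91, 53 and 134, and 31 and 30. With totals that leave out S100a8, S100a9, haemoglobin, mitochondrial and ribosomal genes, 288 genes were lower in NB, the cytokine list was at 0.071 in 10 M and S100a8 at 0.021 in 18 M.

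Without thinning, the interferon share was 8.38% at NB, 6.94% at 2 M, 10.9% at 10 M and 2.87% at 18 M, and the chemokine share 94.5%, 95.4%, 94.4% and 97.8%. At 1000 UMIs the interferon share was 3.01% in NB and 3.22% in 10 M, and the chemokine share 87.9% at NB, 84.4% at 2 M, 86.6% at 10 M and 91.8% at 18 M. As a mean over cells, log2 ratios of NB to 2 M were -0.19 for H2-Ab1, -0.21 for H2-Aa and -0.23 for H2-Eb1, and in 10 M the interferon list was at -0.021 and Ptgs2 at -0.065.

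Without granule-rich cells, the specific granule list was at 0.50 and Ltf at -1.10 in 18 M, and Ngp at 0.10 in NB. Without cells rich in haemoglobin, S100a8 was at 0.056 in 18 M and Sftpc at -0.30 in 10 M. Without the subclusters led by NK cell or haemoglobin genes, S100a8 was at 0.055, Mgp at 0.39 and Mki67 at -1.69 in 18 M. In NB 288 genes were then lower, Ccl5 was at 0.87, H2-Ab1 at -0.74, H2-Aa at -0.81 and H2-Eb1 at -1.296. In 10 M 45 genes were higher, the interferon list was at -0.022, Gsn at -0.50, H2-Ab1 at -0.29 and H2-Eb1 at -0.46.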
